A study of Homo sapiens with 12 samples.

Results

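The contrast described here asked whether 24 h of 4-hydroxytamoxifen (4-OHT) changed gene expression differently in cells carrying the fusion PAX3-FKHR-ER than in cells carrying the vector pK1. From the log2 change that 4-OHT brought under the label PAX3-FKHR-ER it subtracted the one under the label pK1, each change being read between the arrays that share a replicate number. All 22215 non-control probe sets of 22215 on the array belonged to it. Of these, 13329 probe sets of 8124 genes lay above the signal filter and were tested, and 8886 did not. The cells were RD, an established line from an embryonal rhabdomyosarcoma, a childhood tumour with features of skeletal muscle. They had been transduced with 1 of 2 constructs, a fusion of PAX3-FKHR with the ligand-binding domain of the estrogen receptor in a modified form, or the pK1 vector. RNA was taken without the drug or after 24 h at 30 nM, giving 4 groups of 3 arrays (Affymetrix U133A). All groups share the genome of 1 tumour line, which is not an alveolar one. Whether a replicate number marks a separate population of cells is not stated in the labels, so the p-values may measure technical spread. The value of a probe set is called its response difference below: above 0, 4-OHT moved it further up, or less far down, under the fusion label than under the vector label.

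PAX3-FKHR, now also written PAX3-FOXO1, joins the DNA-binding domains of PAX3, a regulator of early muscle precursors, to the activation domain of the forkhead factor FKHR, and it defines most alveolar rhabdomyosarcomas. Joined to the estrogen receptor domain it is held inactive until 4-OHT is added. The drug can also act on cells by itself, and subtracting the change of the vector cells sets the response of the fusion cells against that part of it.

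The 4 arrays of replicate 1 stood apart from the other 8, so the results below are given with and without them. The 24 poly-A probe sets read bacterial RNA that can be added to a sample before labelling. They had medians of 2.58 to 7.41 on these 4 arrays and 118 to 291 on the others. Log2 signals correlated at 0.957 to 0.982 among these 4 arrays and at 0.815 to 0.869 with the other 8. Among those 8 the range was wide too, 0.867 to 0.982, its low end within the range just given. PAX3, part of the fusion, without 4-OHT read 98.9 and 105 under the fusion label against 41.5 and 30.6 under the vector label in replicates 2 and 3. In replicate 1 it read 17.6 against 49.4, the opposite order, and with 4-OHT 58.9 against 57.8, nearly level. FOXO1, which holds the other part, without 4-OHT read 146 and 124 against 52.1 and 36.1 in replicates 2 and 3. In replicate 1 it read 142 against 214 without 4-OHT and 138 against 121 with it. A second FOXO1 probe set gave 313 for the fusion and 198 for the vector label in untreated cells, then 257 and 69.5 in treated ones. For ESR1, the receptor gene, a dimmer tested probe set without 4-OHT read 121 and 76.2 against 4.16 and 12.7 in replicates 2 and 3. In replicate 1 it read 7.50 against 57.0 without 4-OHT and 44.7 against 58.4 with it, higher under the vector label both times. The order of the constructs in replicate 1 thus differed between these probe sets and, for some of them, between the treatments. In 4-OHT response, PAX3, FOXO1 and ESR1, each by its brightest probe set, had adjusted p-values of 0.669, 0.546 and 0.761 in limma without replicate 1, so the construct's own genes gave no call. A second array stood out less: pK1 with 4-OHT replicate 2 had an ACTB 3′/5′ ratio, a sign of RNA quality, of 1.62, against 0.833 to 1.05 on the other 11. Of 10 skeletal myoblast markers 7 lay above the filter, led by CHRNA1 and MYOD1, while MYF5, PAX7 and CHRNG did not. Of 26 markers of 5 other cell types, 19 lay under it. KRT18, an epithelial keratin, read 645 to 1868, and NEFL, CD53, TEK, PECAM1, KRT8 and MBP were the other 6 above it, with means from 246 for NEFL down to 43.5 for MBP.

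With all 12 arrays, fitted as 6 pairs, no gene had a response difference past an adjusted p of 0.05 in limma. That was 0 of 13329 probe sets, or 0.0%, with 634 at an unadjusted p under 0.05 and a smallest adjusted p of 0.926. The replicate numbers ran in different directions. Across the 13329 probe sets, as a description, the response differences of replicates 2 and 3 correlated at 0.188, and those of replicate 1 correlated with them at -0.150 and -0.107. Replicate 1 carried its difference mostly in the cells labelled pK1, whose change had an SD of 0.443 over probe sets against 0.295 in those labelled PAX3-FKHR-ER. This pK1 change correlated at 0.225 and 0.207 with the PAX3-FKHR-ER changes of the other 2 numbers, with which it shares no array. The PAX3-FKHR-ER change of replicate 1 correlated with the same changes at -0.0076 and 0.010. Of the tested probe sets 3259, or 24.5%, had 1 sign in all 3 numbers.

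**Figure D1:**
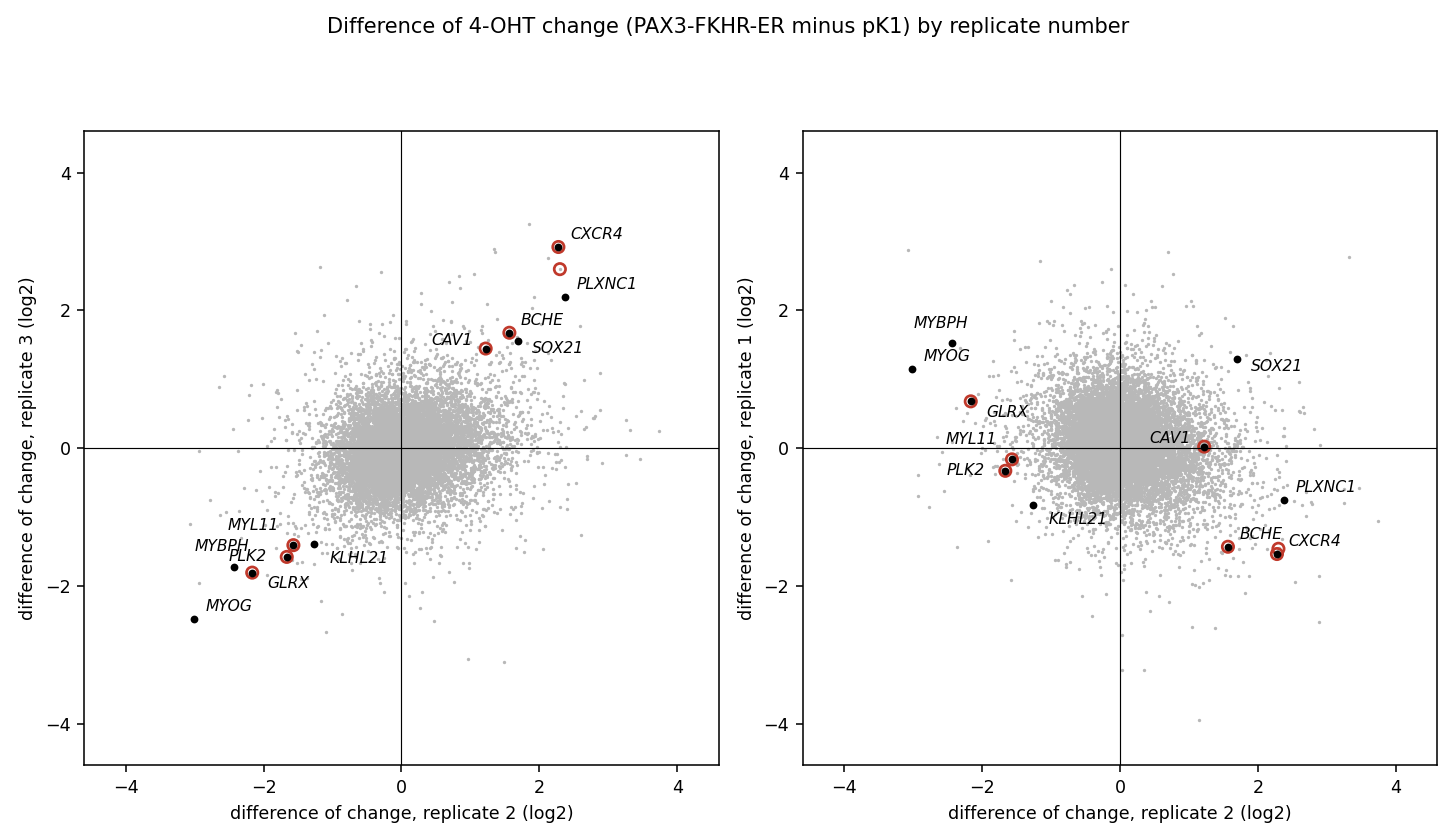
Response difference (log2) of each of 13329 tested probe sets, replicate 2 on the x axis against replicate 3 (left) and replicate 1 (right) on the y axis. Red circles mark the 7 probe sets past an adjusted p of 0.05 in the fit without replicate 1, and black points are named genes; CXCR4, BCHE, GLRX and MYOG lie in matching quadrants on the left and in opposite ones on the right.

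Without replicate 1, 7 probe sets of 6 genes passed in limma, 4 higher (0.03% of 13329) and 3 lower (0.0225%). The higher ones were CXCR4 with 2 of its 3 probe sets, BCHE and CAV1, and the lower ones GLRX, PLK2 and MYL11. All had unequal changes in the same direction in both numbers, and in each the change lay mainly in the cells labelled PAX3-FKHR-ER. This fit has 2 residual degrees of freedom, so much of its spread is borrowed across probe sets; 0 passed without either PAX3-FKHR-ER pair and 78 and 408 without the pK1 pairs of replicates 2 and 3.

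CXCR4, the receptor of the chemokine CXCL12 and a known target of the fusion, had the largest of the called differences. Its probe set of smallest p read as follows: labelled PAX3-FKHR-ER it went from 119 to 198, 474 to 2126 and 444 to 2459.8 in replicates 1, 2 and 3, and labelled pK1 from 180.2 to 885, 142 to 127 and 273 to 189. In replicates 2 and 3 both fusion pairs thus went up and both vector pairs went down. The response difference was -1.53, 2.28 and 2.92 by number, 2.60 ± 0.20 (SE, limma adjusted p = 0.00442) without replicate 1, a ratio of 6.06, and 1.22 ± 0.65 (SE, limma adjusted p = 0.926) with all 12 arrays. In replicate 1 the order was reversed, the vector pair going up further than the fusion pair. A second probe set gave 2.45 ± 0.20 (SE, limma adjusted p = 0.00442), and the remaining one, with 1.05 and 2.54 in replicates 2 and 3, gave 1.79 (limma adjusted p = 0.0990) and did not pass.

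BCHE encodes butyrylcholinesterase, an enzyme that cleaves choline esters. Its signal under the fusion label went from 20.8 to 40.8, 583 to 1624 and 514 to 1559 in replicates 1, 2 and 3, and labelled pK1 from 38.0 to 209, 126 to 116 and 496 to 459.6. The 2 vector pairs of replicates 2 and 3 moved little, while their levels differed from each other by more than the fusion pairs' did. The response difference was 1.57 and 1.68, or 1.62 ± 0.17 (SE, limma adjusted p = 0.0194), and -1.43 in replicate 1, which left 0.60 ± 0.51 (SE, limma adjusted p = 0.928) over 12 arrays. CAV1 encodes caveolin 1, the main coat protein of caveolae. In replicates 2 and 3 it went from 579.9 to 1380.2 and 469 to 1252 under the fusion label and from 204 to 205 and 894 to 856 under the vector label. On the 4 arrays of replicate 1 it read 2.81 to 5.82, below the pseudocount of 16, so those arrays bear on no change of it. The difference was 1.33 ± 0.17 (SE, limma adjusted p = 0.0496). Its other probe set, read at 1.05 ± 0.20 (SE, limma adjusted p = 0.138), did not pass.

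**Figure D2:**
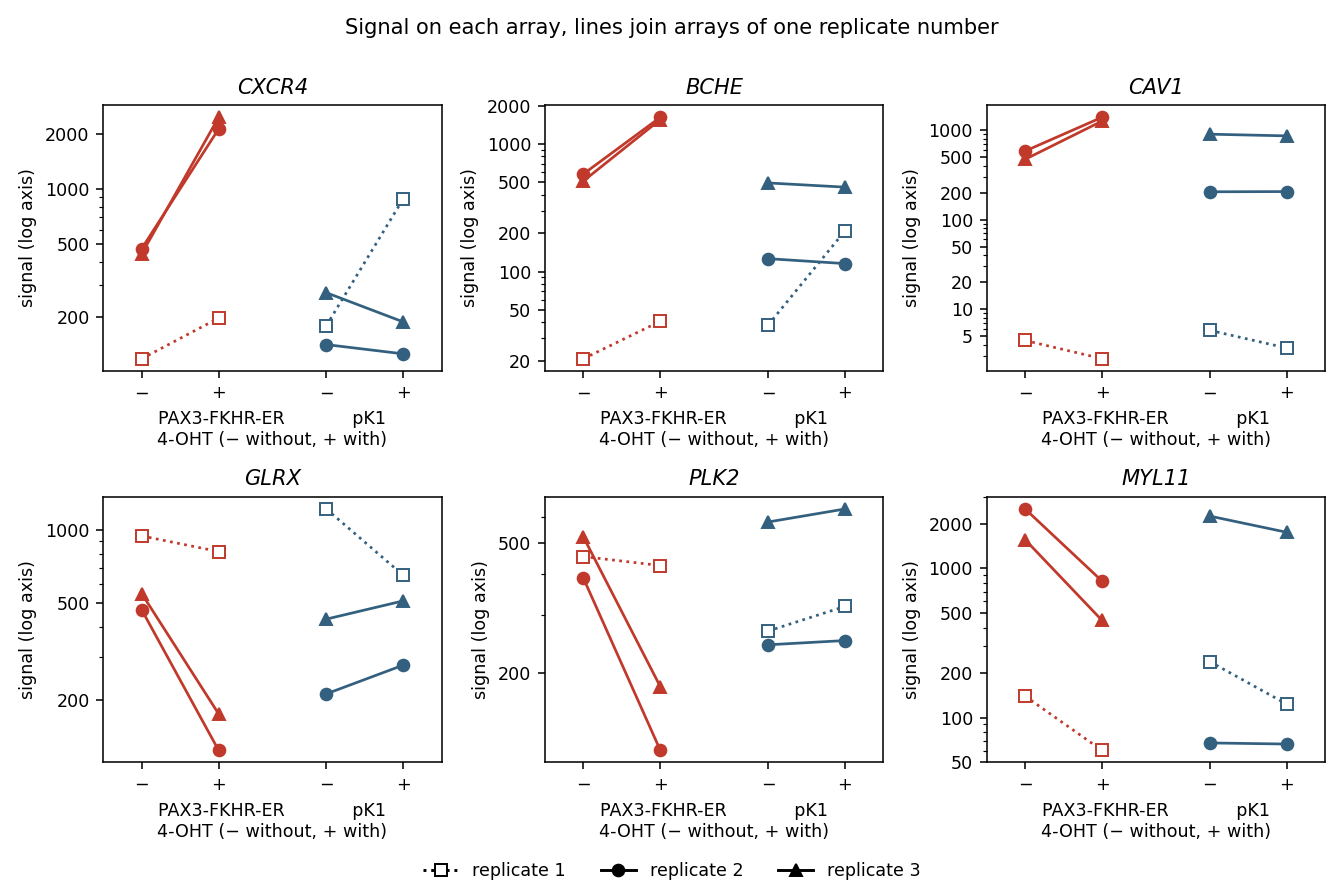
Signal (log axis) of the 6 genes past the threshold without replicate 1, on each of the 12 arrays, without (−) and with (+) 4-OHT, red for PAX3-FKHR-ER and blue for pK1; lines join the arrays of a replicate number, dotted with open squares for replicate 1. In replicates 2 and 3 the red lines are steep and the blue ones nearly level, and in replicate 1 CXCR4 and BCHE climb more steeply in blue.

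GLRX, glutaredoxin, which reduces protein disulfides with glutathione, had the largest negative difference among the called genes. It read 947 to 816, 469 to 124 and 547 to 175 without and with 4-OHT in replicates 1, 2 and 3 labelled PAX3-FKHR-ER. Labelled pK1, it read 1223 to 652, 212 to 278 and 430 to 511. In replicates 2 and 3 both fusion pairs dropped and both vector pairs climbed, giving -1.98 ± 0.19 (SE, limma adjusted p = 0.0130). In replicate 1 both pairs dropped, the vector one further, and the 12-array value was -1.10 ± 0.42 (SE, limma adjusted p = 0.926). Its dimmer probe set had -0.92 without replicate 1 and did not pass (limma adjusted p = 0.174).

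PLK2, a polo-like kinase induced by growth signals and p53, read 454 to 426, 389 to 116 and 521 to 181 under the fusion label and 268 to 319, 243 to 251 and 579 to 635 under the vector label. All 3 fusion pairs dropped and all 3 vector pairs climbed, with response differences of -0.33, -1.66 and -1.57. It gave -1.62 ± 0.18 (SE, limma adjusted p = 0.0310) without replicate 1 and -1.19 ± 0.34 (SE, limma adjusted p = 0.926) with it. MYL11, the regulatory light chain of fast skeletal myosin, also kept 1 sign in all 3 numbers, at -0.16, -1.57 and -1.40. Its fusion pairs went from 139 to 60.2, 2504 to 822 and 1558 to 448, and its vector pairs from 237 to 123, 67.6 to 66.4 and 2244 to 1747. The vector level thus differed between replicates 2 and 3 by far more than either pair moved. The difference was -1.49 ± 0.18 (SE, limma adjusted p = 0.0496) without replicate 1 and -1.04 ± 0.25 (SE, limma adjusted p = 0.926) with it.

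Muscle contraction genes had the lowest list median of response difference in replicates 2 and 3. Of 29 tested of 45 listed, 24 lay below 0 and 5 above, where 4390 and 3734 of all 8124 genes did. The median was -0.61, against -0.03 over all genes. At an unadjusted p under 0.05 in limma, 11 were lower (37.9%, against 4.79% of all genes) and 1 higher (3.45%, against 4.49%), and after adjustment MYL11 alone passed. In both of replicates 2 and 3, 19 lay below 0 and 4 above, where 30.6% and 24.4% of all genes did. The medians by number were 0.34, -0.49 and -0.70, and 17 of the 19 lay above 0 in replicate 1. Of the 2488 genes below 0 in both of replicates 2 and 3, 1544 lay above 0 in replicate 1. Over 12 arrays the median was -0.28. For 16 of the 19 the pK1 signal of replicate 1 went down with 4-OHT. The median pK1 change of that number over all genes was -0.09, so most of all genes went down too. This change is a term of the replicate 1 difference and correlated with it at -0.819 across probe sets. The 16 of 19 thus partly repeats the 17 of 19. In bulk RNA, fewer cells expressing muscle genes and less of their RNA per cell cannot be told apart.

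MYOG, myogenin, which drives terminal muscle differentiation, had the lowest difference of all tested probe sets in that fit and missed the threshold. It read 298 to 20.8 and 172 to 19.7 in the fusion pairs of replicates 2 and 3, and 10.3 to 8.82 and 94.9 to 101 in the vector pairs. The difference was -2.74 ± 0.35 (SE, limma adjusted p = 0.0530), and 1.15 in replicate 1, where the fusion pair went up and the vector pair from 32.8 to 35.6. With all 12 arrays it was -1.44 ± 0.88 (SE, limma adjusted p = 0.926). CKM, the creatine kinase of muscle (-1.67), MYBPH, which binds myosin (-2.08), and MYL1, a fast myosin light chain (-0.96), came next to MYL11 among muscle genes by p. MYOG, CKM and MYBPH lay under the pseudocount in the vector pair of replicate 2, the last 2 at 8.69 to 4.49 and 6.23 to 3.68, where no drop could be measured, so their replicate 2 differences rest on the fusion pair. TPM2, a tropomyosin, was the 1 muscle gene higher at an unadjusted p under 0.05 (0.50).

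**Figure D3:**
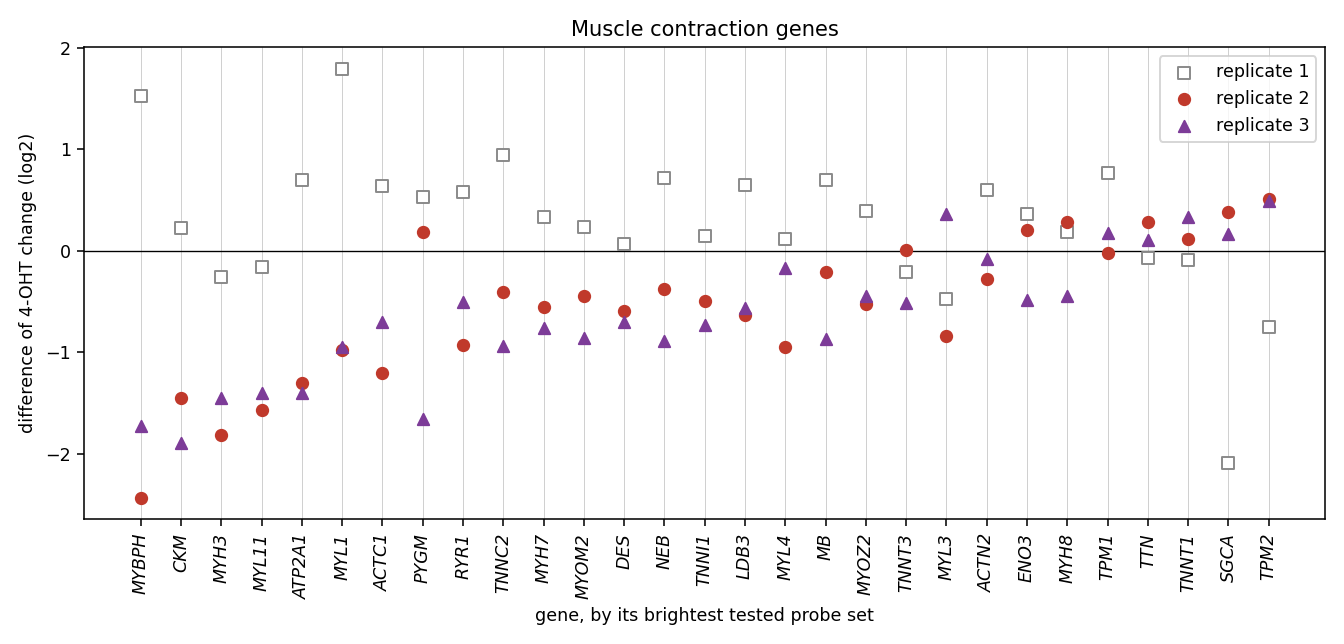
Response difference (log2, y axis) of the 29 tested muscle contraction genes (x axis), each by its brightest probe set, with open squares, circles and triangles for replicates 1, 2 and 3. Circles and triangles lie below 0 for 19 of the 29 genes, and the squares of 17 of those 19 lie above it.

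Among genes with differences below 0 in both of replicates 2 and 3, MYOG and 3 muscle genes were picked for printing. They do not stand for all such genes. Shown are the stretches before their starts, because myogenin and MyoD bind the E-box, CANNTG. Each is the 250 bases before a start listed by RefSeq on GRCh38.p14, 5′ to 3′ on the gene's strand, with every CANNTG in capitals. The motif reads the same on both strands in its fixed letters, and CAGCTG is one form of it. MYL11 has 2 listed starts, and the window of the later one is shown. That of the earlier one holds 1 CANNTG, starting 34 bases before its start, and no CAGCTG.
MYOG chr1:203086013-203086262, minus strand: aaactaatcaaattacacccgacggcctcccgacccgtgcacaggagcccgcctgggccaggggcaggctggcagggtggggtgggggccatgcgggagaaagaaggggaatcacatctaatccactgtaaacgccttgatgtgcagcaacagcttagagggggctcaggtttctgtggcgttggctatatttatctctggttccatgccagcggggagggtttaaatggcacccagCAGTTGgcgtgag
CKM chr19:45322876-45323125, minus strand: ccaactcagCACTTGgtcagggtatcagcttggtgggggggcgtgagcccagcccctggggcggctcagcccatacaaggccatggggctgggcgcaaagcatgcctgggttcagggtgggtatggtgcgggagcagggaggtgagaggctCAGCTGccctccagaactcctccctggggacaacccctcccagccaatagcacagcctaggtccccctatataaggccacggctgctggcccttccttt
MYBPH chr1:203175827-203176076, minus strand: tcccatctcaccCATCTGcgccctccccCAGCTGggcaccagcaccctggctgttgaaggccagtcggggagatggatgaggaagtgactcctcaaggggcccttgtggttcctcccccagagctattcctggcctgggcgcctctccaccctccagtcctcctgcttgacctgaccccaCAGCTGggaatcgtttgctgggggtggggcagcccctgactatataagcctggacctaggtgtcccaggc
MYL11 chr16:30372044-30372293, plus strand: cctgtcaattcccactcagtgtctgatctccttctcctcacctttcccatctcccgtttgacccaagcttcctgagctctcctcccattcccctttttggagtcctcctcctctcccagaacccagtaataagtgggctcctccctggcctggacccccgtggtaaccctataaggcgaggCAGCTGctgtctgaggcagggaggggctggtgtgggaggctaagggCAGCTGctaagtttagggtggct
MYOG had 1 such match, starting 13 bases before its start, CKM 2, at 241 and 99, MYBPH 3 and MYL11 2 in the window shown. Of the 11 muscle genes lower at an unadjusted p under 0.05, 7 had windows in the table, 12 in all. CANNTG was in 10 of the 12 (83.3%), against 61.8% of 35116 windows of all genes, and CAGCTG in 4 (33.3%) against 14.0%. Those 4 were the printed windows of CKM, MYBPH and MYL11 and a window of ATP2A1. ACTC1, MYL1 and NEB, not printed, had no CAGCTG. Over the 30 windows of the whole tested muscle list the shares were 66.7% and 23.3%, nearer to those of all genes. These are counts of letters in windows that partly share a gene, with no test, and they say nothing of binding.

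Genes known as targets of PAX3-FKHR split in both directions. Of 24 tested of 32 listed, 15 had a response difference above 0 and 9 below without replicate 1, where 3734 and 4390 of all 8124 genes did. The list median was 0.32. At an unadjusted p under 0.05 in limma, 9 were higher (37.5%, against 4.49% of all genes) and 5 lower (20.8%, against 4.79%), and after adjustment CXCR4 alone passed. POU4F1, a POU-domain factor of sensory neurons (1.32), MYCN, an oncogenic MYC family factor (1.52), GREM1, a secreted BMP antagonist, and MYOD1, the myogenic determination factor (0.75), were among the higher. MYOG, HEY1, CCND2, RASSF4 (-1.37) and FGFR4 were the lower ones. FGFR4, a growth factor receptor, read 479 to 395 and 483 to 347 under the fusion label and 89.8 to 114 and 190.5 to 198 under the vector label, a difference of -0.54 (limma adjusted p = 0.426). MYCN was at 2.72 to 1.88 in the vector pair of replicate 2, under the pseudocount. In replicate 1 the list median was -0.25, with 18 of 24 below 0, where 3403 of 8124 genes were, and over 12 arrays it was 0.03.

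Further genes came close to the threshold on the higher side, each with an adjusted p of 0.0622 to 0.0810 in limma without replicate 1. PLXNC1, a semaphorin receptor, went from 63.4 to 355 and 28.4 to 169 under the fusion label and from 23.9 to 19.99 and 18.5 to 15.3 under the vector label (2.29). GREM1 went from 63.7 to 292 and 38.3 to 321, against 8.36 to 5.49 and 19.3 to 16.4 (2.44), and its brighter probe set had 1.31 (limma adjusted p = 0.263). The vector levels of both genes lay near or under the pseudocount of 16, so a drop there could hardly be measured. FST, follistatin, which binds activin and myostatin, had 1.42. LDOC1 (1.91), ING4, a subunit of a histone acetyltransferase complex (2.06), CADM1, an adhesion molecule (1.39), and COL4A1, a basement membrane collagen (1.38), were the others that the rule for named genes took. Outside the rule, and named after their values were seen, SOCS2, a suppressor of cytokine signals (1.48), TBC1D9 (1.72) and PEG10 (1.35) were among further genes that shared the adjusted p of 0.0810. Other probe sets did not all follow: the brighter one of COL4A1 had 0.10 (limma adjusted p = 0.911), the dimmer one of ING4 -0.30, and those of CADM1 0.79 and 0.30. ING4 started from 21.5 and 14.1 in the fusion pairs, near or under the pseudocount. In replicate 1 the differences were smaller in size, at -0.75 for PLXNC1, -0.69 for GREM1, 0.10 for FST, -0.72 for LDOC1, -1.45 for ING4, 0.59 for CADM1 and -0.99 for COL4A1. In COL4A1 the vector pair of replicate 2 went from 298 to 126, a larger move than that of its fusion pair (621 to 850).

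On the lower side TNC, RGS16, HEY1, IFIT1, ANXA1, CCND2 and CKM, given above, had adjusted p-values of 0.0622 to 0.0810 in limma. TNC, the matrix protein tenascin C, went from 579.8 to 252 and 711 to 331 under the fusion label and from 217 to 251 and 426 to 478 under the vector label (-1.29). HEY1, a repressor downstream of Notch, went from 778 to 340 and 1333 to 701, against 1229 to 1347 and 1444 to 1645 (-1.19). In both genes the changes of the constructs did not overlap, which naming genes by small p in this fit largely gives. RGS16, which damps G protein signals (-1.34), ANXA1, annexin A1 (-1.08), and CCND2, cyclin D2 (-1.02), had differences below 0 in both of replicates 2 and 3. In replicate 3 the vector pairs of RGS16 and ANXA1 went slightly down, from 560 to 536 and 1803 to 1739. In replicate 1 the differences were 0.93, 0.42, 1.58 and 1.01 for TNC, HEY1, RGS16 and ANXA1, all with the other sign, and -0.22 for CCND2, with the same one. The 2 dimmer probe sets of CCND2 had -0.54 and 0.07 without replicate 1.

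Interferon response genes had a median of -0.35 over 24 tested of 34 listed without replicate 1. Of them 21 lay below 0 and 3 above, where 4390 and 3734 of all 8124 genes did. At an unadjusted p under 0.05 in limma, 6 were lower (25%, against 4.79% of all genes) and 1 higher (4.17%, against 4.49%), and none passed after adjustment. IFIT1, which binds viral RNA, went from 488 to 245 and 634 to 323 under the fusion label and from 339 to 365 and 682 to 805 under the vector label (-1.12, limma adjusted p = 0.0810). ISG15, a ubiquitin-like modifier (-0.62), and OASL (-0.64) followed, and IRF9, a subunit of the factor that turns these genes on, was the higher one (0.76). The list medians by number were 0.13, -0.26 and -0.47, and -0.17 over 12 arrays. In replicate 1 the vector pair of IFIT1 went from 110.2 to 19.7, while the fusion pair went from 118 to 119, a difference of 1.84.

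Genes induced by ERK that feed back on it had a median of -0.25 over 18 tested of 19 listed, with 5 lower at an unadjusted p under 0.05 in limma (27.8%, against 4.79% of all genes) and 0 higher. DUSP4, a MAP kinase phosphatase (-1.35), DUSP7, another (-0.91), SPRY4, a Sprouty inhibitor of the RAS pathway (-0.97), and PHLDA1 (-0.82) were 4 of the 5, and DUSP2 (-1.63) the other. In replicates 2 and 3, 10 lay below 0 in both (55.6%, against 30.6% of all genes) and 0 above in both (against 24.4%). None passed after adjustment, and the list median was 0.04 in replicate 1 and -0.18 over 12 arrays. By the probe set used, the 2 DUSP4 differences were -2.11 and -0.60, and its vector pair of replicate 2 read 9.88 to 18.2, near the floor. Another DUSP4 probe set had -1.59 and -1.62 in replicates 2 and 3 (limma adjusted p = 0.155), and 1.12 in replicate 1.

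Notch, Wnt and BMP genes gave values on both sides. Of 15 Notch genes, DTX4, an E3 ligase of the pathway (1.02), and NOTCH2 (0.76) were higher and HEY1 and JAG2, a ligand (-0.64), lower at an unadjusted p under 0.05 in limma. Of 22 Wnt genes, LGR5, a receptor of R-spondins (1.11), and TCF7L2 (0.53) were higher, and WNT5A, a ligand (-0.93), FZD2, a receptor (-1.19), LRP6, a co-receptor (-1.26), and DKK3 (-0.80) lower, with a median of -0.16. The Wnt median was 0.37 in replicate 1 and 0.07 over 12 arrays. Of 24 BMP and TGF-beta genes, FST, GREM1, SMAD5, a signal transducer (0.69), TGFBR1 (0.99) and BMP7 (0.84) were higher and ID3, a target of BMP signals (-0.60), and TGFBR2 (-0.51) lower. Of 14 myogenic regulators MYOD1 was higher and MYOG, TCF4, ID3 and MEF2C lower, with a median of -0.18. At that p, 13.3% of the Notch genes were higher and 13.3% lower, against 4.49% and 4.79% of all genes. These shares were 9.09% and 18.2% for Wnt, 20.8% and 8.33% for BMP and TGF-beta, and 7.14% and 28.6% for myogenic regulators. RASSF4, TPM2, DUSP2, TCF7L2, DKK3, TGFBR1, BMP7, TGFBR2 and MEF2C lay outside the rule for named genes and were named after their values were seen.

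The other 17 lists had medians from -0.11 to 0.16, and of their 315 genes 8.89% were higher and 6.03% lower at an unadjusted p under 0.05 in limma, against 4.49% and 4.79% of all genes. The estrogen-responsive genes, which could report on the drug or on the receptor domain, had a median of -0.01 over 8 tested of 16 listed, with 0 at an unadjusted p under 0.05. S phase and mitosis genes had 0.06 over 40, with 2 higher (5.0%, close to the 4.49% of all genes), CCNE1, cyclin E1 (0.66), and AURKB, a mitotic kinase (0.48). Single members came close in other lists: KLF4, a zinc finger factor (1.16, limma adjusted p = 0.0869), and GADD45A, a stress-response gene (1.03, limma adjusted p = 0.0863). KLF4 read 157 to 1051 in the vector pair of replicate 1 and 77.0 to 157 in the fusion pair, and its difference there was -1.73.

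**Figure D4:**
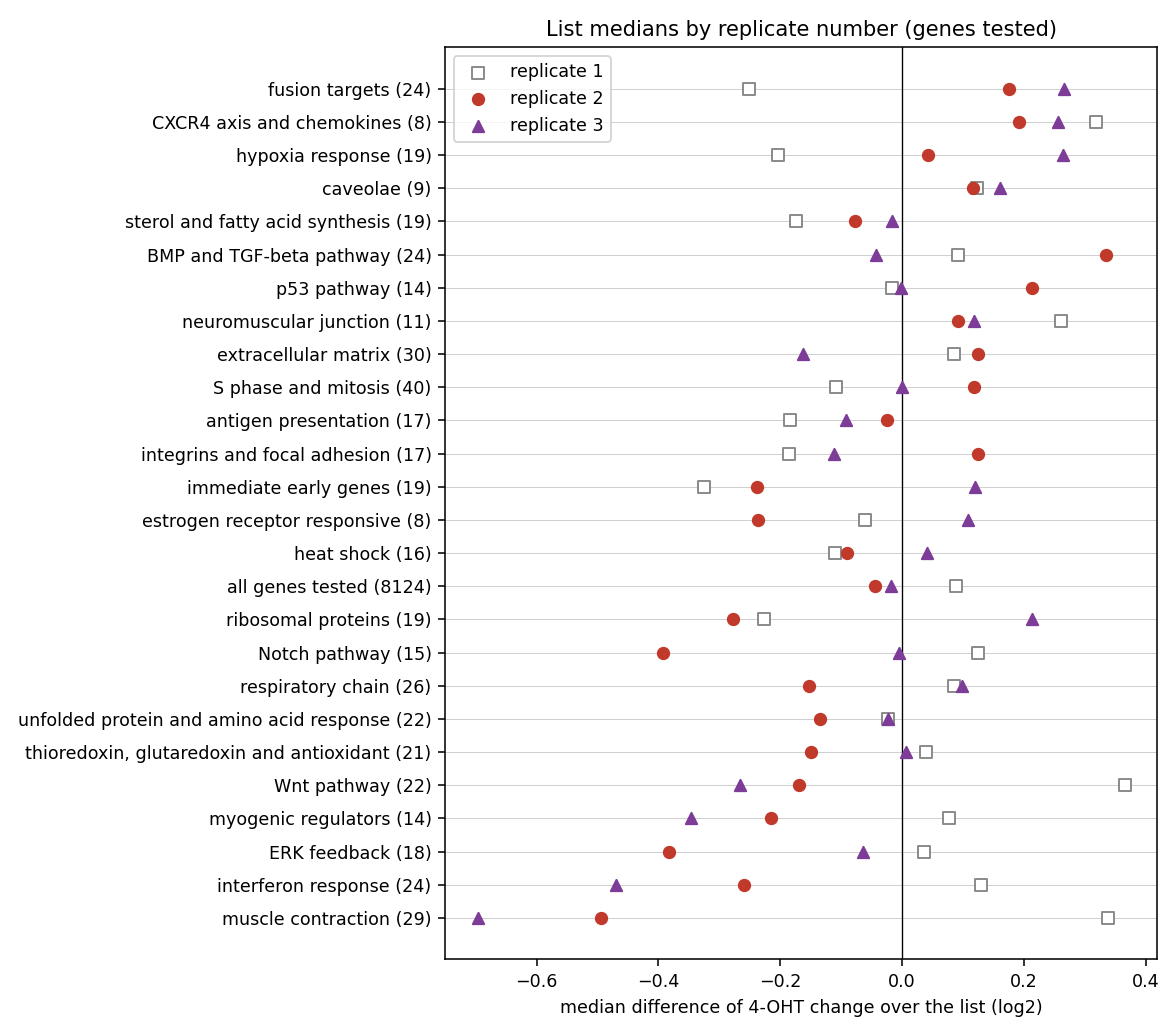
Median response difference (log2, x axis) over the tested genes of each of 25 lists and over all 8124 genes (y axis, number tested in brackets), with open squares, circles and triangles for replicates 1, 2 and 3. Muscle contraction and interferon response lie farthest to the left in replicate 3, and both lie right of 0 in replicate 1.

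Response differences that were large in both of replicates 2 and 3 were counted by the construct whose change was larger. At 1 log2 or more in both numbers with 1 sign there were 121 probe sets of 13329, 71 higher and 50 lower. In 80 of these the mean PAX3-FKHR-ER change was over 2 times the pK1 change in size, in 8 the reverse held, and 33 lay between. The same split was not taken over all probe sets, whose changes also spread more under the fusion label. Over all 13329 the SD of the PAX3-FKHR-ER change was 0.420 and 0.374 in replicates 2 and 3. That of the pK1 change was 0.385 and 0.279. Of the 121, 68 had a mean signal under 100, where small signals weigh on a log2 change. In replicate 1, 85 had a difference of the opposite sign, 49 of the 71 higher ones and 36 of the 50 lower ones. Over all genes, by brightest probe set, 940 of the 1980 above 0 in replicates 2 and 3 and 1544 of the 2488 below 0 had it too. The pK1 change of replicate 1 had the sign of the replicate 2 and 3 difference in 85 of the 121 (70.2%), against 55.6% of the 7267 tested probe sets with 1 sign in replicates 2 and 3. The PAX3-FKHR-ER change of replicate 1 had the sign of that difference in 55 of the 121, against 49.8% of the 7267. What part the replicate 1 arrays' low spike-in signal has in these values was not tested.

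Some genes kept 1 sign in all 3 replicate numbers, so that leaving out replicate 1 turns none of their directions. None passed in limma. Among the 10 of smallest p on the lower side, KLHL21, a ubiquitin ligase adaptor used in cell division, read 124 to 114, 157 to 90.4 and 260.3 to 159.8 under the fusion label. Under the vector label it read 97.2 to 168, 64.3 to 102 and 87.4 to 155. All 3 fusion pairs went down and all 3 vector pairs up, giving -0.81, -1.26 and -1.38, or -1.15 ± 0.22 (SE, limma adjusted p = 0.926). RCN1, a calcium-binding protein of the endoplasmic reticulum, had the same order, at -0.91, -0.90 and -0.64, or -0.82 ± 0.15 (SE, limma adjusted p = 0.926). LBR, a receptor of the inner nuclear membrane (-0.74), HSPH1, a chaperone (-0.58), and TMED10, a cargo receptor of the secretory pathway (-0.59), had smaller values. MAP3K7CL (-0.86), THUMPD1 (-0.84), PHLDA1 (-0.70) and MARK4, a microtubule affinity kinase (-1.28), completed the 10 with MYL11. PLK2, with 1 sign in all 3 too, had -1.19. Other probe sets of these genes often differed in sign or size. HSPH1 had a second at -0.57, 0.70 and 0.13 by number, and TMED10 at -0.59, 0.23 and -0.20. The brighter one of MARK4 kept its sign but was small, at -0.14 over 12 arrays. The other 4 of PHLDA1 lay above 0 in replicate 1. Of the 20 genes named for 1 sign, higher and lower, 10 had another tested probe set, and for 8 of these some other probe set did not keep the sign in all 3 numbers; THUMPD1 and MARK4 were the 2 where it did.

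On the higher side UBE2G2, a ubiquitin-conjugating enzyme of protein quality control, came first. Under the vector label it went from 160.4 to 92.1, 219 to 87.9 and 192 to 105, and under the fusion label from 101 to 153, 161 to 152 and 153 to 171. Its difference of 1.09 ± 0.23 (SE, limma adjusted p = 0.926) thus lay mainly in the vector cells. Its second probe set had -0.18, -0.06 and 0.91 by number. TLN1, talin 1, which links integrins to actin, went up in all 3 fusion pairs and down in all 3 vector pairs (0.62, 1.25 and 0.87), as did IL11, a cytokine of the IL6 family (1.05, 2.14 and 0.62). RAB27A, a vesicle GTPase (1.00), UBXN4 (0.67), SOX21, a transcription factor (1.51), and CACNA1I, a calcium channel (1.26), had that order as well. HLA-G (0.92), MYO15B (2.12) and H2BC12L (0.84) completed the 10. The brighter probe set of MYO15B had -0.06 over 12 arrays, and the other 3 of HLA-G had -0.04, -0.11 and -0.56. UBXN4 had an equally bright probe set below 0 in all 3 numbers, at -0.05, -0.06 and -0.36, and a dimmer one at -0.45, 0.87 and 0.08. Of RAB27A, 1 further probe set had -1.51, 1.46 and 1.35. SOX21 and MYO15B were dim, with mean signals of 37.7 and 36.9, and HLA-G and H2BC12L have near-identical copies that their probes may also read.

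**Figure D5:**
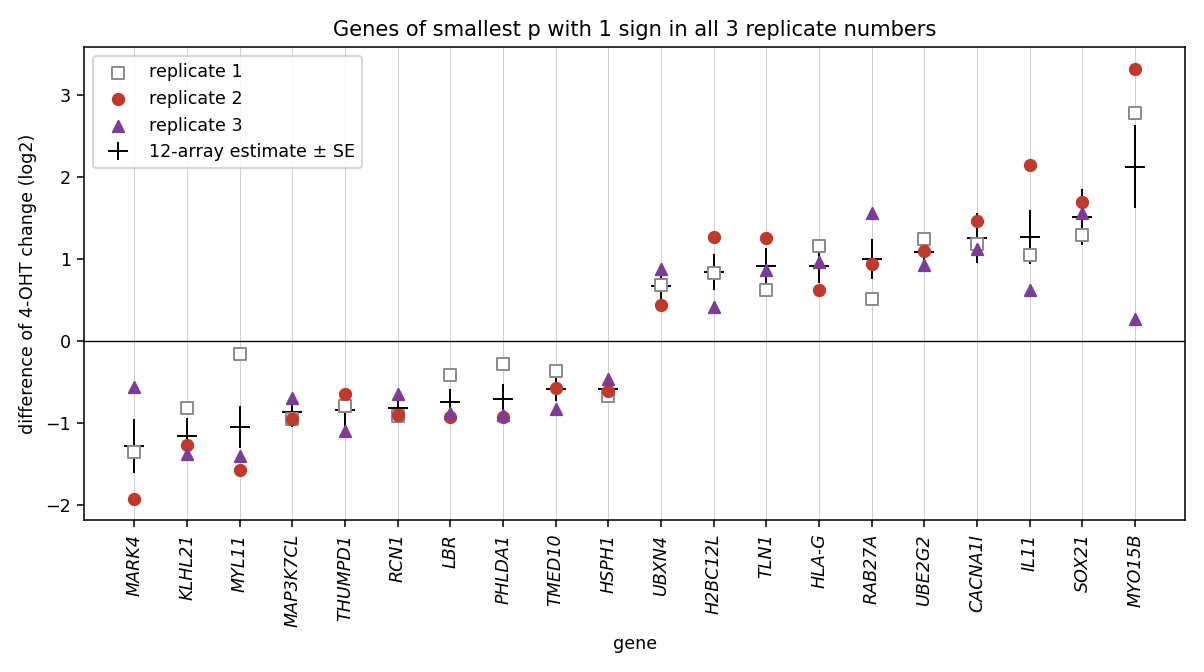
Response difference (log2, y axis) in replicates 1, 2 and 3 (open squares, circles, triangles) for the 20 genes of smallest p among those with 1 sign in all 3 numbers (x axis), with the 12-array limma estimate ± SE in black. UBE2G2, SOX21, CACNA1I, RCN1 and HSPH1 have their 3 values close together, while MYO15B and IL11 spread widely; choosing genes of 1 sign fixes which side of 0 they lie on.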

How the data were processed

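Expression was measured on 12 Affymetrix U133A arrays, 4 groups of 3, grouped by the sample titles. The deposited intensities were probe set signals of the authors; the submitters' processing notes name GCOS and MAS5, and their versions, the scaling target and detection calls are not given in the sources used here. Of 22283 probe sets 68 were controls; of the rest 19065 had 1 gene symbol, and only these were named.

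Signals were taken as log2(signal + 16), so changes of dim genes are understated. The 40% with the lowest mean signal (under 36.7) were left out. limma 3.58.1 in R 4.3.3 fitted 6 pairs of arrays as blocks and 1 4-OHT coefficient per construct (lmFit, eBayes with an intensity trend); their difference was tested two-sided, with Benjamini-Hochberg adjustment over 13329 probe sets and a threshold of 0.05. This left 4 residual degrees of freedom, and 2 without replicate 1. The array number limits the precision. Within a construct, deviations from the group means of same-numbered arrays without and with 4-OHT correlated at 0.703 to 0.851, so the numbers were taken to pair them; across constructs they correlated at 0.152 to 0.685.

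Lists were described by counts and medians over each gene's brightest tested probe set, with no set test. The contrast, the 25 lists, the rule for named genes and 25 alternatives were chosen with earlier results of these data known, among them the fit without replicate 1; 4 more alternatives, leaving out 1 pair of that fit each, were chosen after seeing its result. Named were the 10 genes each way of smallest p with 1 sign in all 3 numbers, every probe set past the threshold and the 10 each way of smallest p without replicate 1, up to 4 members of each list, and 10 fixed genes. Python 3.11.15 and matplotlib 3.10.9 drew the figures. Promoter windows came from RefSeq on GRCh38.p14.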

Additional observations from a re-analysis of the deposited data

Results flagged for a closer look

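The test of the difference between the constructs' 4-OHT responses was passed, without replicate 1, by CXCR4 (2.60 and 2.45 log2 for 2 of its 3 probe sets), BCHE (1.62), CAV1 (1.33), GLRX (-1.98), PLK2 (-1.62) and MYL11 (-1.49).

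With all 12 arrays no gene passed, but in some named genes every pair labelled PAX3-FKHR-ER moved one way with 4-OHT and every pair labelled pK1 the opposite way. Up under the fusion label and down under the vector label were SOX21 (1.51 log2), RAB27A (1.00), TLN1 (0.91), CACNA1I (1.26), UBXN4 (0.67), IL11 (1.27), NRG1, a ligand of ERBB receptors (0.72), and CXCL8, a chemokine (1.02). Down and up were RCN1 (-0.82), KLHL21 (-1.15), MAP3K7CL (-0.86), LBR (-0.74), HSPH1 (-0.58), THUMPD1 (-0.84), TMED10 (-0.59), PLK2 (-1.19), CCND2 (-0.75) and the ribosomal protein gene RPLP2 (-0.55). Most of these were named because their differences shared a sign, so that pattern is partly given by the choice. Of all tested probe sets 24.5% had 1 sign of difference in all 3 numbers. The share of them with the stricter pattern was not counted, so the list has no background to be read against. The pattern holds for the probe set used: UBXN4, HSPH1, TMED10, RAB27A, CCND2 and THUMPD1 have others that did not follow it. The adjusted p of each of these 12-array differences in limma was 0.926.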

How the results depend on the processing

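With all 12 arrays, 0 probe sets passed under 19 of the 20 alternatives and 7 without replicate 1; leaving out replicates or single pairs gave 0 to 7. No replicate block gave 0 (39 at an unadjusted p under 0.05, against 634 with the pairs), and a replicate block across constructs 0 (513). Without replicate 1, against 7, no replicate block gave 0 (144), no signal filter 0 (1759), no intensity trend 0 (1182), all 3 replicate numbers 0, a pseudocount of 64 gave 44 and quantile normalization 18. Leaving out 1 of its 4 pairs gave 0 to 408, with 1 residual degree of freedom. Each of the 4 settings with calls held the 7 probe sets among them, and over 9 alternatives to that fit CXCR4 stayed between 2.43 and 2.77 and GLRX between -2.10 and -1.70. STC2 (-0.13) ranged from -0.40 to 0.14 when 1 pair was left out, and GPX1 (0.34) turned to -0.0068 with all 3 numbers; neither had passed.

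Among list medians, 30 with 12 arrays and 40 without replicate 1 moved by more than the spread between replicates. The muscle median lay between -0.66 and -0.28 over 11 alternatives to the fit without replicate 1, interferon response between -0.44 and -0.17 and fusion targets between 0.03 and 0.44; the Wnt median turned from -0.16 to 0.07 with all 3 replicate numbers. The cause of these shifts was not tested. Dim genes, near the pseudocount, limit the size that can be read from a log2 change.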
